A study of Mus musculus with 2 samples.

Results

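Apoe and the lipid carriers that glial cells use with it were followed here across the cell classes of the mouse spinal cord. The set holds 10 genes, chosen by symbol, of the 32285 genes in the count table: the secreted carriers Apoe, Clu and Apod, the lipid exporters Abca1 and Abcg1, the lipid-sensing receptor Trem2, and the fatty acid-binding proteins Fabp7, Fabp5, Fabp4 and Fabp3. All 10 were found and none was dropped. Spinal cords of FVB mice of the Taiwanese model of spinal muscular atrophy (SMA) were taken at postnatal day 4 and profiled by droplet single-cell RNA sequencing, which counts the 3′ ends of transcripts as unique molecular identifiers (UMIs). The SMA library came from mSmn-/-, hSMN22tg/0 pups and the Con library from mSmn+/-, hSMN22tg/0 littermates, so both groups carry the human SMN2 transgene and at least one targeted Smn allele. Each library pooled the cords of 3 pups. With 1 library per group there is no replicate, so no test and no p-value is given: intervals are 95% intervals for counting error only, and a difference between the libraries is a difference between 2 samples.

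Lipids cannot move between neural cells on their own. Astrocytes lipidate apolipoprotein E through the exporters Abca1 and Abcg1 and release it as particles that other cells take up through surface receptors. Microglia read lipids with the receptor Trem2, which signals through the adaptor Tyrobp, and raise Apoe when they engulf debris. Inside cells, fatty acids travel on small cytosolic binding proteins, with Fabp7 known from radial glia and immature astrocytes, Fabp5 from glia and skin, Fabp4 from fat and endothelium and Fabp3 from muscle and neurons.

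The SMA library held 26921 barcodes with 85872075 UMIs and the Con library 25419 barcodes with 97894084 UMIs. The libraries listed 8163 barcodes in common. Over these barcodes Xist, which is expressed from the inactive X of female cells, stood at 459 counts per 1000000 UMIs (CPM) in SMA against 506 in Con, while over the other SMA barcodes it stood at 1.36. Shared barcodes were therefore left out of SMA, and after filtering 6787 SMA cells (median 6109 UMIs) and 8916 Con cells (median 6232 UMIs) remained. In the named cells other than erythroid-like ones Xist stood at 1.74 CPM in SMA and 621 in Con, and 4 Y-linked genes together at 169 and 75.6, so genotype and the sex of the pooled pups cannot be told apart. Smn1 stood at 52.0 and 51.1 CPM there, so its 3′ counts did not separate the libraries; whether they fall in the altered part of the gene is not given in the sources used here, and SMA and Con mean the libraries that carry those labels. Clusters were named from marker genes and their classes are called "-like", with 11 classes of at least 50 cells in each library. Orders of classes are among these 11 unless a small class is named. The 10 genes and the pathway lists were kept out of the clustering and the naming. Their levels by class are given as descriptions.

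**Figure D1:**
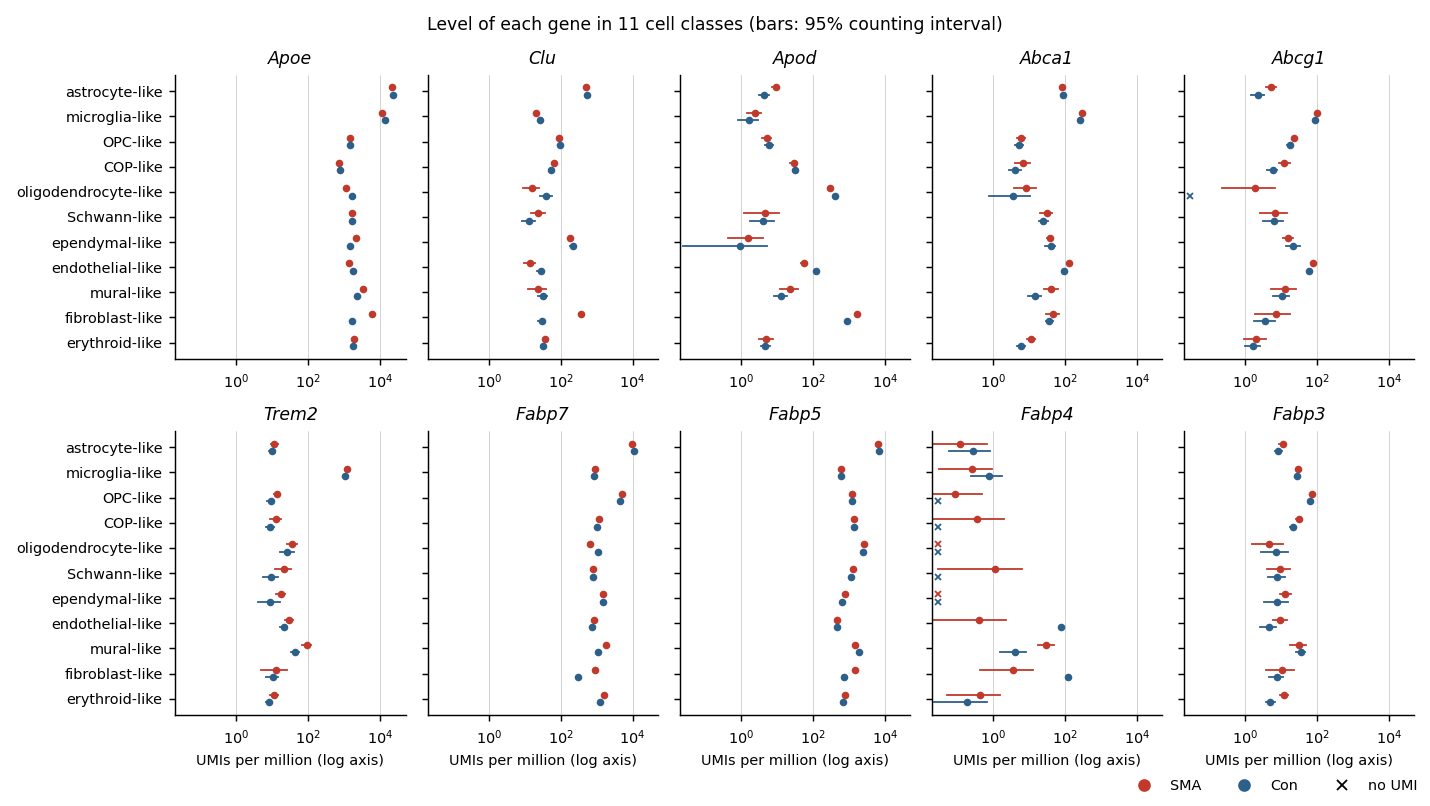
Level of each of the 10 genes (CPM, log axis) in 11 cell classes, with SMA in red and Con in blue; bars are 95% counting intervals and crosses mark classes with no UMI. Apoe was highest in astrocyte-like cells (21290 and 22148), Trem2 stood out in microglia-like cells (1198 and 1026), and the Con points of Fabp4 in endothelial-like and fibroblast-like cells lie apart from the SMA points.

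Apoe (chromosome 7, 19696109 to 19699188, minus strand) was highest in astrocyte-like cells, with 21290 CPM in SMA (counting interval 21191 to 21390) and 22148 in Con (22058 to 22238). Of the 11 large classes microglia-like cells came next, with 11248 in SMA and 13142 in Con, and this order held in both libraries beyond the counting intervals. Macrophage-like cells, a class of only 38 SMA and 63 Con cells, held 13002 and 12514, above the microglia-like level in SMA. Monocyte-like cells, of 20 SMA and 287 Con cells, held 1607 and 15517, above the microglia-like level in Con. Together the astrocyte-like and microglia-like cells held most of the Apoe UMIs of the kept cells: the astrocyte-like cells 54.8% in SMA and 57.7% in Con, from 18.1% and 17.8% of all UMIs, and the microglia-like cells 27.8% and 21.4%. With every cell thinned to 1000 UMIs, an astrocyte-like cell had a median of 21 Apoe UMIs in SMA and 22 in Con, with 5th and 95th percentiles of 8 and 39 against 8 and 42. A microglia-like cell had a median of 10 and 11 on the same scale. Before thinning, at least 1 Apoe UMI was found in 100% of the cells of both classes in both libraries.

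Below these classes the order of Apoe was not firm. Mural-like cells stood at 3355 and 2271 CPM and fibroblast-like cells at 5810 and 1653, and the classes from erythroid-like to oligodendrocyte-like lay between 1140 and 2081 in SMA and between 1420 and 1779 in Con, with ranks that changed between the libraries. COP-like cells (committed oligodendrocyte precursors) were lowest of the large classes, at 711 and 754, and the small neuron-like class stood at 457 and 368.

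The lower part of this range has to be read against RNA that cells do not make. Erythroid-like cells, which should lack Apoe, carried 13.03 Apoe UMIs per cell in SMA (counting interval 12.8 to 13.3) and 12.1 in Con (11.9 to 12.3) at median depths of 6806 and 7146 UMIs. OPC-like cells (oligodendrocyte precursors) carried 8.40 and 8.59, COP-like cells 5.74 and 6.77 and neuron-like cells 4.24 and 3.73, all below the mean of all erythroid-like cells. Of the other 10 large classes, only astrocyte-like, microglia-like, mural-like and Schwann-like cells exceeded the erythroid-like interval in both libraries. The erythroid-like value was itself uneven, so the order against it is not a verdict on which classes express Apoe. In its shallowest cluster, of 269 SMA and 601 Con cells, Apoe stood at 24.6 and 21.4 UMIs per cell, against 5.06 and 6.60 in the largest cluster and 3.00 and 3.34 in the deepest. Haemoglobin made up 24.96% and 35.22% of the UMIs of the shallowest cluster and 89.7% and 89.3% of those of the largest. OPC-like cells lay above the largest cluster in both libraries, COP-like cells did so beyond the counting intervals in SMA only, and neuron-like cells did not.

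**Figure D2:**
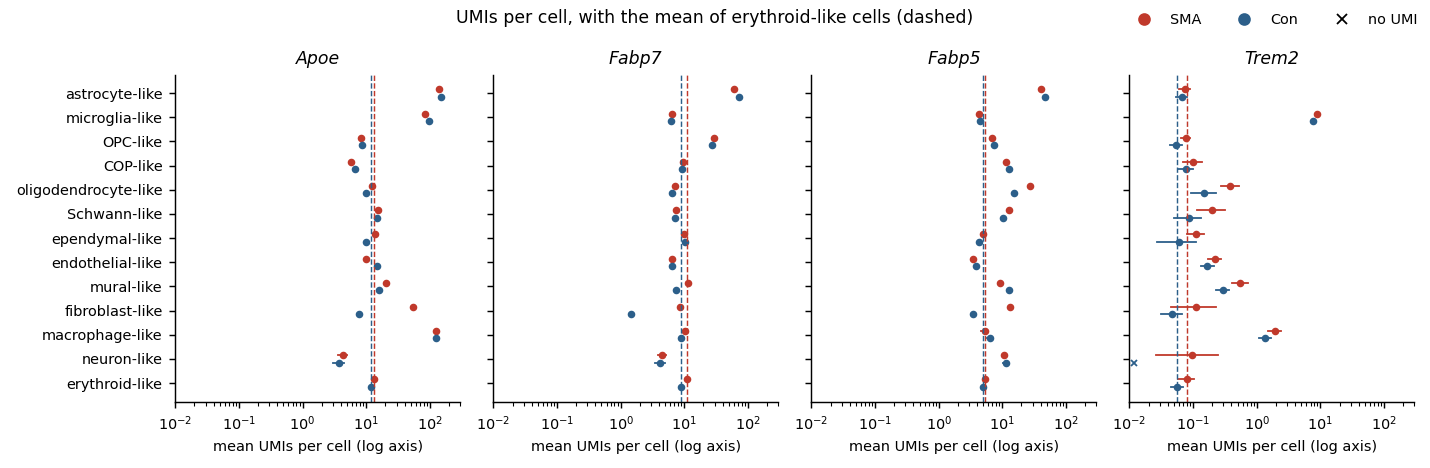
Mean UMIs per cell (log axis) of Apoe, Fabp7, Fabp5 and Trem2 in 13 cell classes; bars are 95% counting intervals and dashed lines give the mean of erythroid-like cells in SMA (red) and Con (blue). For Apoe the astrocyte-like (138 and 150), macrophage-like (125 and 126) and microglia-like cells (82.5 and 97.3) lie far to the right of the dashed lines, and OPC-like, COP-like and neuron-like cells to the left.

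Between the libraries Apoe was slightly lower in SMA in both main sources. In microglia-like cells the log2 ratio of SMA to Con was -0.22 (-0.24 to -0.21), or 0.856-fold, and in astrocyte-like cells -0.06 (-0.07 to -0.05). In oligodendrocyte-like cells Apoe stood at 1140 and 1668 CPM, a ratio of -0.55 (-0.66 to -0.44). That ratio was inside 1.5-fold as given and past it in 5 of 15 alternatives, with -1.93 when shared barcodes were left out of both libraries and 0.21 in cells of at least 5000 UMIs. Mural-like cells stood at 0.56 (0.48 to 0.64) and ependymal-like cells at 0.52 (0.43 to 0.60), both inside 1.5-fold as given and past it in 4 and 2 alternatives. Without the 3 cells richest in Apoe per library the mural-like value was 0.22 (0.13 to 0.32). Endothelial-like cells stood at -0.46 (-0.52 to -0.39), and between -0.79 and -0.43 over the alternatives. That ratio was past 1.5-fold at a mitochondrial limit of 20% and with shared barcodes out of both libraries. The astrocyte-like and microglia-like ratios lie inside the 1.5-fold used here to single out a pair of gene and class, and inside the 5th to 95th percentile of all genes tested in the class (-0.37 to 0.52 in microglia-like and -0.50 to 0.37 in astrocyte-like cells). The median gene of the astrocyte-like cells stood at -0.06, the same as Apoe. The microglia-like value was negative in each of its 3 clusters, at -0.21 in the main cluster, -0.29 in a cluster led by Siglecf and Mlxipl, and -0.09 in the cycling cluster. The astrocyte-like value was negative in 4 of 5 clusters and positive, at 0.10 (0.08 to 0.12), in the cluster whose leading genes include Gfap, the intermediate filament of fibrous astrocytes. When barcodes listed in both libraries were left out of Con as well, the ratios were -0.35 in microglia-like and -0.23 in astrocyte-like cells. That alternative drops most Con cells of these classes. Shared barcodes made up 93.0% of the Con cells in the main microglia-like cluster and 81.0% to 98.3% in the astrocyte-like clusters. In endothelial-like cells they made up 83.4%. Before filtering, the shared Con barcodes had a median of 7609 UMIs and the other Con barcodes 997. When shared barcodes were instead kept in both libraries, the ratios were -0.20 and 0.00, so the direction in astrocyte-like cells is not firm.

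The astrocyte-like clusters did not share one maximum for the carriers. Apoe was highest in the cluster led by Ackr4 and Slc7a10, a neutral amino acid transporter, at 26098 and 28600 CPM. Clu, the chaperone also called apolipoprotein J, was instead highest in the Gfap cluster, at 792 and 750. Fabp5 was highest in the Gfap cluster too, at 8308 and 9514. Fabp7 was highest in the cluster led by Pax3 and Gbx2, patterning factors of the dorsal cord, at 10608 and 12426. The 5th cluster, led by 2810049E08Rik, was lowest for Apoe (12218 and 12589), Fabp7 (7488 and 6528) and Fabp5 (3470 and 3897). These maxima and minima were the same clusters in both libraries.

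**Figure D3:**
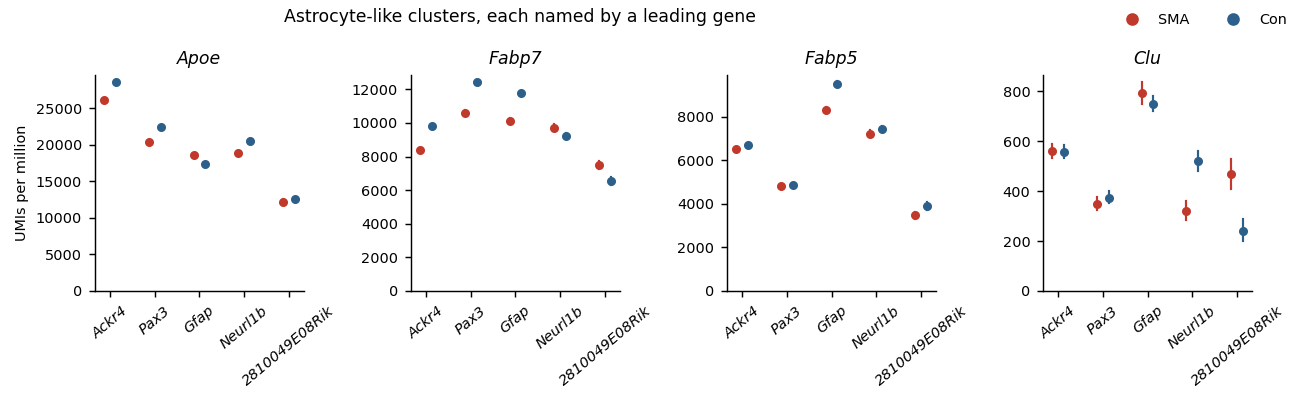
Level (CPM, linear axis from 0) of Apoe, Fabp7, Fabp5 and Clu in the 5 astrocyte-like clusters, each named by a leading gene, with 95% counting intervals; SMA is red and Con blue. Apoe is highest in the Ackr4 cluster (26098 and 28600) while Clu is highest in the Gfap cluster (792 and 750).

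Clu (chromosome 14, 65968483 to 65981547, plus strand) was highest in astrocyte-like cells, with 518 CPM in SMA (502 to 533) and 549 in Con (535 to 563), a log2 ratio of -0.08 (-0.14 to -0.03). Ependymal-like cells followed in Con, at 214, and stood at 184 in SMA. OPC-like cells held 88.8 and 95.04 and COP-like cells 64.9 and 55.6. These 4 classes were above the mean of all erythroid-like cells, 0.26 and 0.23 UMIs per cell, in both libraries. Clu did not differ by 1.5-fold between the libraries in any of them.

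Apod (chromosome 16, 31296192 to 31314808, minus strand), a lipocalin of connective tissue and myelinating cells, had another distribution. Fibroblast-like cells held 1632 CPM in SMA and 904 in Con, oligodendrocyte-like cells 298 and 424, endothelial-like cells 57.2 and 119, and COP-like cells 29.1 and 31.4, and this order was the same in both libraries. In the other classes Apod was at most 23.2. Endothelial-like cells had less Apod in SMA, with 141 UMIs in 327 cells against 428 in 435 cells, a log2 ratio of -1.06 (-1.34 to -0.78). Without the 3 cells richest in Apod in each library it was -1.31 (-1.64 to -0.99). When shared barcodes were left out of both libraries it turned to 0.21 (-0.71 to 1.30), an interval that includes 0. Astrocyte-like cells had 76 Apod UMIs in SMA and 47 in Con, a ratio of 1.04 (0.50 to 1.60), of which 59 and 18 UMIs lay in the cycling cluster. That ratio rested on 3 cells per library, and without them it was -0.05 (-0.99 to 0.87).

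The exporters Abca1 (chromosome 4, 53030787 to 53159895, minus strand) and Abcg1 (chromosome 17, 31057675 to 31117988, plus strand), which load lipid onto apolipoprotein particles, were both highest in microglia-like cells and not in the astrocyte-like cells that held most Apoe. Abca1 stood at 305 CPM in SMA (293 to 317) and 261 in Con (248 to 273) in microglia-like cells. Endothelial-like cells followed with 127 and 94.5, and astrocyte-like cells with 84.3 and 90.4. Abcg1 stood at 97.5 and 86.8 in microglia-like cells, 75.9 and 60.5 in endothelial-like cells and 23.2 and 17.1 in OPC-like cells, but only at 5.31 and 2.28 in astrocyte-like cells. Against Con, both exporters were somewhat higher in SMA where they were highest: Abca1 by 0.23 (0.14 to 0.32) and Abcg1 by 0.17 (0.01 to 0.33) on the log2 scale in microglia-like cells, and by 0.43 (0.20 to 0.65) and 0.33 (0.04 to 0.62) in endothelial-like cells. All 4 values lie inside 1.5-fold. With shared barcodes left out of both libraries Abca1 in microglia-like cells stood at -0.20 (-0.50 to 0.12) and Abcg1 in endothelial-like cells at 1.62 (0.37 to 3.26), from 187 and 5 UMIs. In erythroid-like cells Abca1 had 52 and 64 UMIs, a ratio of 0.89 (0.33 to 1.44) in the class used as background, and 0.34 with equal weight per cell.

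Trem2 (chromosome 17, 48346401 to 48354147, plus strand) was the most class-bound of the set. Microglia-like cells held 1198 CPM in SMA (1174 to 1223) and 1026 in Con (1002 to 1051), and 90.4% and 81.4% of all Trem2 UMIs of the kept cells. Macrophage-like cells held 203 and 136 and the small monocyte-like class 79.2 and 800. The other large classes lay at 91.2 or less. Their Trem2 is given here beside microglial complement RNA, and its source was not tested. For every 100 UMIs of C1qa, C1qb and C1qc there were 8.73 and 8.11 Trem2 UMIs in microglia-like cells and 9.43 and 10.1 in astrocyte-like cells. OPC-like cells had 9.58 and 8.26 and erythroid-like cells 7.68 and 9.92. The 11 large classes ranged from 6.43 to 14.3, the highest from only 7 Trem2 and 49 C1q UMIs in SMA fibroblast-like cells. Macrophage-like cells, which also make C1q, had 1.92 and 1.63. In microglia-like cells the log2 ratio of SMA to Con was 0.22 (0.18 to 0.27), opposite in sign to Apoe, and it was positive in all 3 microglia-like clusters (0.21, 0.47 and 0.39). With shared barcodes left out of both libraries it was 0.30 (0.12 to 0.48). Over all named cells other than erythroid-like ones the ratio was 0.65 (0.61 to 0.70), where microglia-like cells made up 15.9% of the kept SMA cells and 9.96% of the kept Con cells. Mural-like cells held 51 Trem2 UMIs in SMA and 75 in Con, a ratio of 1.11 (0.56 to 1.64), beside microglial markers that summed to 1763 and 991 CPM. Without the 3 cells richest in Trem2 per library that ratio was -0.09 (-1.15 to 0.86).

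Upstream of the Trem2 start lies the sequence below, shown because Trem2 is the member most bound to one class. It covers the 120 bases before the RefSeq start, chr17:48346281-48346400 of GRCm38.p6, plus strand, and the capitals mark GAGGAA on the minus strand (TTCCTC as printed), the core of sites bound by PU.1, a factor that specifies myeloid cells.
Trem2: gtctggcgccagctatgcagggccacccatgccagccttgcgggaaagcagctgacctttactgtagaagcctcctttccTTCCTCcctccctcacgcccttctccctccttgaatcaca
The match begins 40 bases before the start. Searched on both strands over 300 bases, GAGGAA occurred in 28.3% of all 32851 promoters, and also in promoters of Apoe, Fabp7 and Apod, so it is a description and does not single Trem2 out. Promoters of 6 of the 10 genes were found in the table used.

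Fabp7 (chromosome 10, 57784881 to 57788450, plus strand) marked both astrocyte-like and OPC-like cells. Astrocyte-like cells held 9451 CPM in SMA (9384 to 9517) and 10771 in Con (10708 to 10834), and OPC-like cells 4996 (4955 to 5038) and 4456 (4415 to 4498). These were the only 2 of 10 large classes above the mean of all erythroid-like cells in both libraries, which for Fabp7 was 11 and 8.76 UMIs per cell. That mean was raised by the shallowest erythroid-like cluster, at 20.3 and 15.5, while the largest held 4.54 and 4.60. Along the oligodendrocyte lineage Fabp7 was lower in COP-like cells (1175 and 1020) than in OPC-like cells in both libraries. From there to oligodendrocyte-like cells (663 and 1074) it was lower in SMA only. Per cell, COP-like cells held 9.50 and 9.16 and oligodendrocyte-like cells 7.15 and 6.34, not above the interval of all erythroid-like cells in both libraries but above the largest erythroid-like cluster. The ratio of SMA to Con had opposite signs in the main sources, at -0.19 (-0.20 to -0.18) in astrocyte-like and 0.16 (0.15 to 0.18) in OPC-like cells, both inside 1.5-fold. The difference between the classes was not tested. With shared barcodes left out of both libraries the ratios were -0.01 and 0.08. In oligodendrocyte-like cells Fabp7 stood at -0.70 (-0.84 to -0.55), where the median depths were 12297 UMIs per cell in SMA and 3158 in Con. Among cells of at least 5000 UMIs the ratio there was -0.25, within 1.5-fold. In mural-like cells it was 0.78 (0.67 to 0.89), and 0.41 (0.28 to 0.53) without the 3 richest cells per library.

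The sequence before the Fabp7 start is shown because astrocyte-like and OPC-like cells were the 2 classes highest in Fabp7 in both libraries. It covers the 108 bases of the RefSeq promoter entry that lie before the annotated gene, chr10:57784773-57784880 of GRCm38.p6, plus strand, and the capitals mark CCAAT boxes on the minus strand (ATTGG as printed), a general promoter element.
Fabp7: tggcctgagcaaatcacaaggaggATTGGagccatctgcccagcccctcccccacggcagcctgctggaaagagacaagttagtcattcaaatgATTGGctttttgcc
The 2 boxes begin 84 and 14 bases before the gene. CCAAT on either strand occurred in 37.4% of all promoters, and among the genes of the set in those of Fabp7 and Trem2.

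Fabp5 (chromosome 3, 10012548 to 10016607, plus strand) was the broadest of the binding proteins. It was highest in astrocyte-like cells, at 6311 CPM in SMA (6257 to 6365) and 7020 in Con (6970 to 7071), and next in oligodendrocyte-like cells, at 2559 and 2552. Along the oligodendrocyte lineage Fabp5 stepped up in both libraries, from 1189 and 1215 in OPC-like cells to 1391 and 1419 in COP-like cells and then to the oligodendrocyte-like level. In 6 of 10 large classes Fabp5 was above the mean of all erythroid-like cells, 5.37 and 4.88 UMIs per cell, in both libraries. The largest erythroid-like cluster held 2.70 and 2.74, and all 10 classes lay above it. The ratio of SMA to Con was -0.15 (-0.17 to -0.14) in astrocyte-like cells, and in oligodendrocyte-like, microglia-like and endothelial-like cells the intervals included 0. With shared barcodes left out of both libraries the microglia-like value was -0.77 (-0.95 to -0.58), the endothelial-like value -1.04 and the astrocyte-like value 0.15 (0.10 to 0.19). Within microglia-like cells the cluster led by Siglecf and Mlxipl held more Fabp5 (1230 and 1473 CPM) than the main cluster (483 and 444), and more Fabp7 (2316 and 2387 against 634 and 570).

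Fabp3 (chromosome 4, 130308595 to 130315463, plus strand) overlaps Zcchc17 and Gm10570 on the other strand. It was highest in the small neuron-like class of 41 SMA and 26 Con cells, at 244 (197 to 299) and 156 (112 to 211) CPM. Among the large classes it was highest in OPC-like cells, at 69.8 and 62.4, followed by the microglia-like, COP-like and mural-like classes at 21.05 to 34.4 in both libraries. OPC-like cells held 53.5% and 47.4% of its UMIs. The ratio of SMA to Con was 0.16 (0.01 to 0.32) in OPC-like cells and 0.58 (0.19 to 0.97) in COP-like cells. In erythroid-like cells Fabp3 had 55 and 52 UMIs, a ratio of 1.27 (0.70 to 1.85) in the class used as background.

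Fabp4 (chromosome 3, 10204088 to 10208576, minus strand) lies 187480 bases from Fabp5 in a cluster of binding-protein genes. The kept cells held 29 Fabp4 UMIs in SMA and 649 in Con. In Con 42.5% lay in endothelial-like and 51.0% in fibroblast-like cells, and in SMA 58.6% lay in mural-like cells. Endothelial-like cells held 1 Fabp4 UMI in SMA and 276 in Con, a log2 ratio of -7.57 (-12.88 to -5.08), and fibroblast-like cells 2 and 331, a ratio of -5.09 (-8.14 to -3.23). In the Con endothelial-like cells only 8 of 435 held any Fabp4 UMI, 1.84% (exact binomial interval 0.797% to 3.59%), and 3 of them held 82.6% of the UMIs, with up to 168 in a cell. Those 8 cells had a median depth of 3442 UMIs against 7991 in the other Con endothelial-like cells, and 12.5% of them had a barcode that SMA also lists, against 84.8% of the others. Mural-like cells held 17 UMIs in 5 SMA cells, 88.2% of them in 3 cells, and 7 UMIs in 7 Con cells, too few for a ratio.

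Fibroblast-like cells held 6 of the 15 pairs of gene and class past 1.5-fold, and they were also the one of the 11 large classes with the highest background share of genes past it. One of its 2 clusters had 2 SMA and 432 Con cells, and the other 60 SMA and 168 Con cells. The cells of the first had a median depth of 2802 UMIs in Con and 2.08% mitochondrial UMIs, and 1.16% of their barcodes were listed in SMA too, against 8444 UMIs, 6.27% and 92.9% in the second. All 331 Fabp4 UMIs of the Con fibroblast-like cells lay in the first cluster, which held little Apoe (180 CPM) or Fabp7 (46.6). In the class as a whole Apoe stood at 1.81 (1.75 to 1.88), Clu at 3.66 (3.29 to 4.04), Fabp7 at 1.58 (1.42 to 1.73), Fabp5 at 0.98 (0.86 to 1.09) and Apod at 0.85 (0.74 to 0.96). Over the alternatives Apoe ranged from 0.97 to 4.46, Clu from 1.91 to 4.24 and Apod from 0.08 to 3.07. Fabp7 ranged from 0.76 to 4.01 and Fabp5 from 0.70 to 1.34. In the cluster that both libraries share, the same ratios were 0.97 (0.90 to 1.03) for Apoe, 3.17 (2.74 to 3.63) for Clu, 0.76 (0.60 to 0.92) for Fabp7, 0.70 (0.57 to 0.82) for Fabp5 and 0.08 (-0.03 to 0.19) for Apod. Apoe, Clu, Fabp7 and Fabp5 thus stayed past 1.5-fold in that cluster and Apod did not. Without the 3 cells richest in the gene in each library, Apoe stood at 1.03 (0.96 to 1.10) there, while Fabp7 at 0.50 (0.31 to 0.69) and Fabp5 at 0.55 (0.41 to 0.69) fell inside 1.5-fold. Clu was 1.18 (0.41 to 1.93), from 29 and 35 UMIs, too few for a call. The SMA and Con cells of that cluster were not alike in other genes. All of the 10 fibroblast markers but Slc6a13 were lower in SMA there, with Lum at 123 and 999 CPM, Col15a1 at 42.9 and 209 and Col1a1 at 2395 and 5403, and the part of this in the members' ratios was not tested.

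In that same cluster Apoe was found in all 60 SMA and all 168 Con cells, with a median of 53.5 UMIs per cell in SMA and 16.5 in Con. Clu by contrast had 197 UMIs in the SMA cells, of which 85.3% lay in 3 cells. These 3 cells had a summed Clu level of 3756 CPM, Ptgds, a prostaglandin synthase of the meninges, at 274359 and the collagen-binding proteoglycan Dcn at 157. The other 57 SMA cells stood at 56.3 for Clu, 18769 for Ptgds and 2699 for Dcn, and the Con cells at 39.1, 446 and 4428. Ptgds, and the fibroblast markers named, were chosen after their values were seen.

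**Figure D4:**
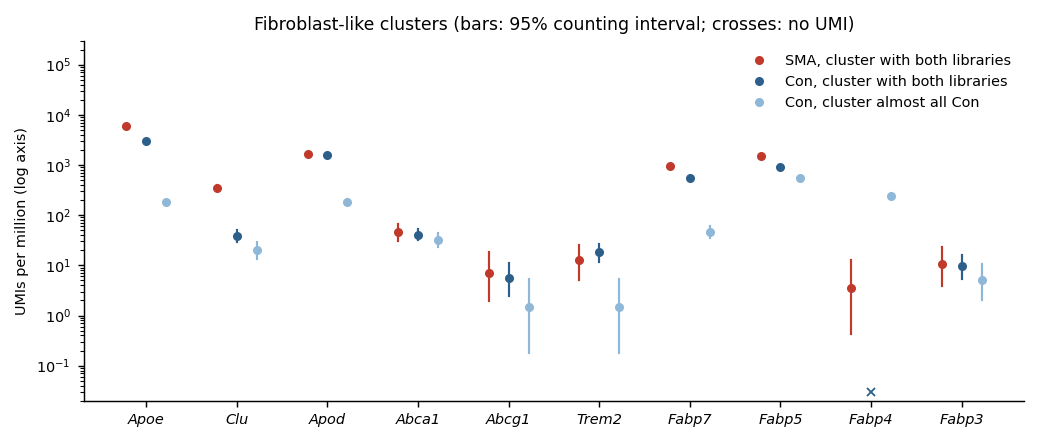
Level (CPM, log axis) of the 10 genes in the fibroblast-like cluster present in both libraries (SMA red, Con dark blue) and in the cluster made up almost only of Con cells (light blue); bars are 95% counting intervals and crosses mark no UMI. Apoe stands at 5956, 3042 and 180 in the 3 groups, while Fabp4 is high only in the last (245).

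Of the 110 pairs of a gene and a large class, 70 had the 100 UMIs over both libraries that a ratio was taken for, and the other 40 did not. In these, 10 ratios were at least 1.5-fold higher in SMA, 5 at least 1.5-fold lower and 55 within, that is 21.4% past 1.5-fold. Over all genes the background in these 11 classes was 8.12% in either direction, 4.18% higher and 3.93% lower of 66189 pairs. The classes differed in background. In fibroblast-like cells 6 of 7 tested members were past 1.5-fold against a background of 35.8%, and in endothelial-like cells 3 of 9 (Apod, Clu and Fabp4) against 9.27%. In mural-like cells the count was 2 of 4 (11.4%), in erythroid-like cells 2 of 7 (11.4%), in oligodendrocyte-like cells 1 of 4 (6.8%) and in astrocyte-like cells 1 of 8 (4.74%). No member was past 1.5-fold in microglia-like (background 4.59%), OPC-like (3.27%), COP-like (5.9%), ependymal-like (5%) or Schwann-like cells (11%). This count depends on the shared barcodes: left out of both libraries, Clu (-1.05), Fabp7 (-0.87), Fabp5 (-0.77) and Fabp3 (-0.81) were past it in microglia-like cells and Trem2 (0.67) in OPC-like cells, the last from 147 and 7 UMIs. Fabp3 in COP-like cells lay just inside, at 1.4997-fold, and was past it in 3 alternatives. Clu in endothelial-like cells rested on 35 and 100 UMIs, a ratio of -0.97 (-1.57 to -0.40), which was within 1.5-fold at -0.39 (-0.81 to 0.02) with shared barcodes kept. The median log2 ratio of the 70 pairs was 0.14, against 0.01 for all genes.

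**Figure D5:**
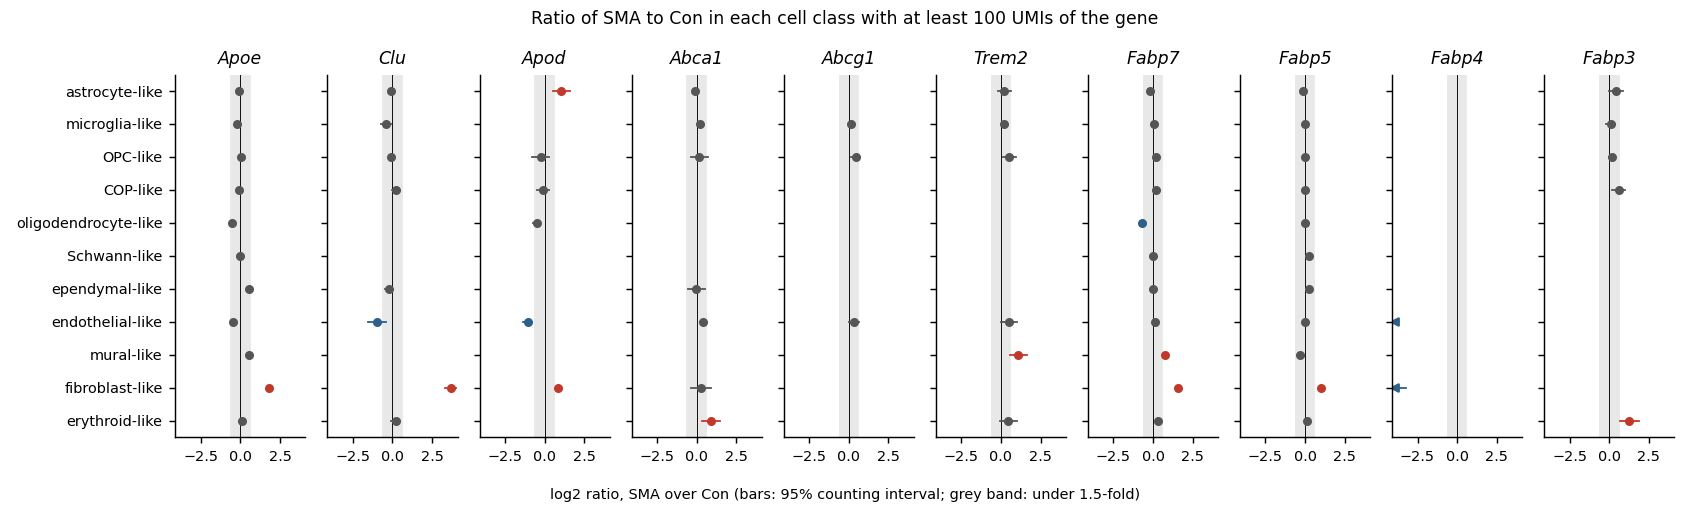
log2 ratio of SMA to Con for each gene in the classes where it had at least 100 UMIs, with 95% counting intervals; the grey band marks ratios under 1.5-fold, red points are higher and blue points lower in SMA, and arrows lie beyond the axis (Fabp4, -7.57 and -5.09). Most points sit in the band, and the fibroblast-like row holds 6 of the 15 outside it.

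The rest of the pathway was counted over 48 genes in 8 lists, of which 38 genes gave 188 pairs. Of these pairs 8 were past 1.5-fold higher and 16 lower in SMA, 12.8% in all, beside the 8.12% of all genes (3.93% lower) and the 35.8% of fibroblast-like cells given above. Among lipoprotein components and lipases the count was 1 higher and 8 lower of 18 pairs. Pltp, the phospholipid transfer protein, was lower in 5 classes, among them endothelial-like cells (1065 against 1743 CPM, -0.71, -0.78 to -0.64) and ependymal-like cells (509 against 801, -0.66), and higher in fibroblast-like cells (0.79). Lcat, which esterifies the cholesterol of Apoe particles, was lower in astrocyte-like cells (57.4 against 105, -0.88, -1.03 to -0.72), and Lpl, the lipoprotein lipase, in OPC-like cells (-0.76) and fibroblast-like cells (-2.12).

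Among lipoprotein receptors 1 of 37 pairs was higher and 4 lower. In astrocyte-like cells the log2 ratio of Vldlr was -0.62 and that of Lrp1, a large endocytic receptor that also binds Apoe particles, was 0.17. Sterol sensors and other ABC transporters had 1 pair higher and 2 lower of 33, lysosomal cholesterol genes 1 lower of 27 (Npc2 in fibroblast-like cells, -1.09), fatty acid uptake and storage genes 2 higher of 54 and PPAR receptors none of 4. The Trem2 signalling list had 3 of 14 pairs higher, all of them Tyrobp, in mural-like (1.27), COP-like (0.64) and oligodendrocyte-like cells (0.61). Microglial markers summed to 1763 and 991 CPM in the first of these classes, 242 and 147 in the second and 731 and 488 in the third, and their part in the ratios was not tested. In microglia-like cells, where Tyrobp belongs, it stood at 3136 and 3200 CPM, a ratio of -0.03. The only other binding protein with enough UMIs was Pmp2, the myelin fatty acid-binding protein of Schwann cells, at 407 CPM in SMA and 1286 in Con in Schwann-like cells, a ratio of -1.66 (-1.82 to -1.50).

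Genes with the most similar profile were sought among 11245 genes by Pearson correlation of log2 levels over the 11 classes in both libraries (22 points that share cells, depth and background RNA, so a description). Apoe was closest to Cst3 (0.961), Apoc1 (0.949) and Eepd1 (0.928). Trem2 was closest to Fcer1g (0.995), C1qc (0.994) and C1qb (0.994), all microglial. Fabp7 was closest to AW047730 (0.986), Baalc (0.959) and Hes5 (0.955), the last a Notch target of glial progenitors. Clu was closest to Robo2 (0.947), Fabp5 to Pmm1 (0.938), Abca1 to Rreb1 (0.942), Abcg1 to Slc7a8 (0.927), Fabp3 to Itga9 (0.908) and Apod to Ctsk (0.818). Within the set the pair most alike was Apoe and Abca1, at 0.706.

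Some small groups of cells stood outside the counts. Monocyte-like cells (20 SMA and 287 Con) held Apoe at 1607 CPM in SMA and 15517 in Con, Trem2 at 79.2 and 800 and Fabp5 at 498 and 1495, while Fabp7 was higher in SMA, at 1506 and 592. The Con cells of this class had a median depth of 1485 UMIs, microglial markers at 13445 CPM against 951 in SMA, and 7.67% of barcodes listed in SMA too. An unnamed cluster of 130 SMA and 264 Con cells with microglial markers held Apoe at 8026 and 9361 (-0.22) and Trem2 at 917 and 690 (0.41). The main microglia-like cluster held no Gpnmb UMI in either library (0 of 841 and 0 of 739 cells), Itgax at 8.13 and 9.02 CPM and Spp1 at 575 and 718. In the cluster led by Siglecf and Mlxipl Spp1 stood at 727 and 296, and the other genes of that kind are not reported for it.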

How the data were processed

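Single-cell suspensions of pooled P4 spinal cords were run on a 10x Genomics 3′ protocol. The deposited values are raw UMI counts, whole numbers for each gene in each barcode. Per the file headers they come from Cell Ranger 4.0.0, while the study's methods name another release, and the build is mm10; Seurat 3.2.2 is named in the submitters' processing notes. Gene and barcode names come from the deposited lists, which hold no numbers.

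Here, SMA barcodes also listed for Con were left out. Cells with 200 to 4000 genes and under 10% mitochondrial UMIs were kept, and a cluster of 1340 Con barcodes rich in ribosomal protein RNA was removed. The upper gene limit stood in for a doublet caller; none was run. With the members, the pathway genes and the haemoglobin genes kept out, cells were clustered (2000 variable genes, 30 principal components, 20 neighbours, Louvain resolution 1) with scikit-learn and python-igraph, and clusters were named from marker lists, with at least 3 markers detected. Of 31 clusters 29 were named. UMIs were summed per class and library and divided by the class total, in counts per 1000000 UMIs (CPM); 3′ counting has no length term. log2 ratios carry exact conditional binomial intervals, levels exact Poisson intervals and shares exact Clopper-Pearson intervals, all 95% and for counting error only. A pair was called past 1.5-fold from 100 UMIs on; a count of 0 allows up to 3. A ratio script was tested on simulated data. No test between groups is possible with 1 library each.

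Members, gene lists and markers were chosen with earlier results of these data known. All members are named, pathway genes past 1.5-fold in up to 3 per list, and the 3 genes most like each member, of which some are printed and some are not reported here; other genes, and the promoter motifs and windows printed, were chosen after their values were seen. Positions come from the GENCODE annotation of GRCm38 (99.6% of 32285 identifiers matched) and promoters from RefSeq. Beside Gpnmb, Itgax and Spp1, the list of phagocytic microglia genes held Clec7a, Lgals3 and Igf1, whose values are not reported here.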

Additional observations from a re-analysis of the deposited data

Results flagged for a closer look

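In these results the ratio of SMA to Con passed 1.5-fold in one direction in one cell class and in the other direction in another; the difference between classes was not tested, since each group is 1 library. Clu was higher in fibroblast-like cells (3.66) and lower in endothelial-like cells (-0.97), a difference of 4.63 on the log2 scale; without the 3 cells of most Clu UMIs per library the values were 1.91 and -0.84. In the fibroblast-like cluster that both libraries share, Clu without 3 cells per library was 1.18 (0.41 to 1.93), from 29 and 35 UMIs, and the endothelial-like value was -0.39 with shared barcodes kept. Fabp7 was higher in fibroblast-like cells (1.58) and lower in oligodendrocyte-like cells (-0.70), a difference of 2.27. The first was 0.76 in the cluster that both libraries share and 0.50 there without 3 cells per library. The second was within 1.5-fold in 5 alternatives and ranged from -1.98 to -0.25. Apod was higher in astrocyte-like cells (1.04) and lower in endothelial-like cells (-1.06), a difference of 2.10, of which the astrocyte-like value was -0.05 without 3 cells per library.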

How the results depend on the processing

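No paired analysis was possible because each group is 1 library. Of the 70 ratios taken, 15 were past 1.5-fold, 10 higher and 5 lower in SMA. From 30 UMIs on 26 of 90 were past it, 20 of them higher, and from 300 UMIs on 8 of 53, 5 higher and 3 lower. The share of all genes past it, 8.12%, was taken in the main setting only. The counts from other settings therefore have no such share beside them and cannot be judged against one. With shared barcodes kept 3 were lower, with a mitochondrial limit of 20% 8 were lower, and without cells holding microglial markers 8 of 54 were past it, 3 higher; of the 15 pairs only 5 could be compared there, and all 5 kept their call. With shared barcodes left out of both libraries, an alternative chosen after seeing the data, 23 of 45 were past it, 15 lower. This alternative drops most Con cells of most clusters, and no share of all genes was taken under it. The cause was not tested. Apoe in astrocyte-like cells was 0.0022 with shared barcodes kept, -0.080 at 20% mitochondrial UMIs, -0.015 in cells of at least 5000 UMIs, -0.10 with equal weight per cell, 0.0048 centred on the median gene, -0.075 without haemoglobin and mitochondrial genes in the totals and -0.23 with shared barcodes out of both. In microglia-like cells it was -0.20, -0.21, -0.20, -0.25, -0.27, -0.24 and -0.35 in the same order, and -0.21 with the unnamed microglial cluster added. Apod in endothelial-like cells turned to 0.21 with shared barcodes out of both. Without the 3 cells of most UMIs, also chosen after seeing the data, Apod in astrocyte-like cells was -0.047 and Trem2 in mural-like cells -0.094, 12 calls held and 3 were lost. Fabp7 in oligodendrocyte-like cells fell inside 1.5-fold in 5 of the alternatives, and ranged from -1.98 with shared barcodes out of both to -0.25 in cells of at least 5000 UMIs. Clu in endothelial-like cells (-0.39 with shared barcodes kept) and Abca1 in erythroid-like cells (0.34 with equal weight per cell) each fell inside it in 1. No replicate could be left out.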
